A study of Homo sapiens with 9 samples.

Results

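Tall solitary QKI‐5 peaks were the HITS‐CLIP peaks on nuclear chromosomes that had a height of at least 55 and no other peak centre on the same chromosome and strand within 5000 nt. Of the 24037 listed peaks, 24019 lay on nuclear chromosomes and 378 of these were tall and solitary. HITS‐CLIP crosslinks proteins to RNA with ultraviolet light, recovers the complexes with an antibody and sequences the attached RNA fragments, and the height of a peak is the number of overlapping fragments at its summit, the position of highest coverage. The members were chosen by height and spacing, so both are given below as a description, with no test. The comparison groups were the 2042 tall peaks that had another peak within 5000 nt, called tall clustered peaks, and the 6167 solitary peaks with a height under 55.

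All libraries came from mesHMLE cells, a mesenchymal derivative of the immortalised human mammary epithelial line HMLE that was obtained with 2.5 ng/ml TGF‐β1 for at least 14 days and then kept without further TGF‐β1. The cells were irradiated at 600 mJ/cm2 and QKI‐5 was immunoprecipitated with an antibody to this isoform. There were 7 immunoprecipitation libraries, of which 3 came from the gel region of the QKI‐5 monomer and 4 from that of the dimer, 1 of the latter made with SuperScript IV, and 2 size‐matched input libraries. The labels describe them as technical replicates of 1 cell line, and none of the libraries used here was an untreated or knockdown sample. The deposited peak list was called on the pooled libraries, so the depth of each library is unknown and there is no spread between replicates. Intervals below are 95% intervals of shares (Wilson) or of differences between shares (Newcombe) over peaks, and they cover counting error only.

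QKI‐5 is the nuclear isoform of Quaking, a STAR family RNA‐binding protein that contacts pre‐mRNA mostly in introns and regulates splicing. Its response element reads ACTAAC in the DNA letters used here. A nearby copy of the core, TAAC or TAAT, often accompanies it. Some repeated sequences also recur among these peaks. U6 is the small nuclear RNA at the catalytic centre of the spliceosome, made by RNA polymerase III and copied into very many genomic pseudogenes. Alu elements are primate retrotransposons derived from 7SL RNA, present in introns, 3′UTRs and intergenic sequence in both orientations.

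The sequences of the members fell into a few recognisable types. The examples in this paragraph are peaks with the response element in capitals, from the tallest such members outside UTRs, written 5′ to 3′ on the peak strand with hg19 coordinates. Each is given whole because the element lies in its 5′ part in most of them.
TSPAN5, chr4:99479367-99479461, minus strand, intron, height 381: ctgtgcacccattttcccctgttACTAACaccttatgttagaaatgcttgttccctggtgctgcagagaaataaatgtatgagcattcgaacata
RBM5, chr3:50141754-50141863, plus strand, promoter class, height 303: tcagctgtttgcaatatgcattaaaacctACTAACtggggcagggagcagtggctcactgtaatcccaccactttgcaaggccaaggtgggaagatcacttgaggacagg
HSD17B4, chr5:118870501-118870571, plus strand, promoter class, height 134: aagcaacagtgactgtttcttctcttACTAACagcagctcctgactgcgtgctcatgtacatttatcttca
ACTB, chr7:5568486-5568595, minus strand, promoter class, height 128: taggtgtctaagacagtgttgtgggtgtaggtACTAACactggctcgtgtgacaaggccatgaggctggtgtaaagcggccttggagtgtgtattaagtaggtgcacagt

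For members in UTRs, the 30 nt around the element are shown, since these carry the match itself.
SIAE, chr11:124506413-124506442, minus strand, 3′UTR, height 384: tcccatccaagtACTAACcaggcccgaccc
ERH, chr14:69846927-69846956, minus strand, 3′UTR, height 199: taacattcacatACTAACccttcttcaaga
PHACTR4, chr1:28793165-28793194, plus strand, 3′UTR, height 182: gctcctgccagcACTAACactactgctacc
STAG2, chrX:123230707-123230736, plus strand, 3′UTR, height 111: aaactaattcacACTAACatgtttactaat

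The U6‐type members shared a stretch near the 5′ end of U6. Capitals mark ACTAAA, which has the first 5 bases of the response element and differs from it at the last. These 3 peaks ended at the same base of U6, and the tallest member, RNU6-48P, ran through its whole gene copy.
RNU6-8, chr14:32672442-32672482, minus strand, height 1445: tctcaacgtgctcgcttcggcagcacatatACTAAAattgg
RNU6-671P, chr12:45948409-45948450, minus strand, height 949: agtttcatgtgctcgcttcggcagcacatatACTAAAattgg
RNU6-7, chr14:32671243-32671284, plus strand, height 671: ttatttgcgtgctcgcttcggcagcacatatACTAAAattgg

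The largest group carried words of Alu elements, among them the peaks antisense to CDC40 (height 353), YME1L1 (296) and TP53AIP1 (254) in the reverse orientation and the one antisense to SKA1 (379) in the forward orientation.

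The tallest members without the element outside these types included a stretch of GT repeats on the opposite strand of C10orf71 and a pseudogene of U2, the small nuclear RNA that pairs with the branch site.
C10orf71, antisense, chr10:50534964-50535009, minus strand, height 796: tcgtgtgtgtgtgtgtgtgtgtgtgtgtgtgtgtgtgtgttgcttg
RNU2-61P, chr6:89773285-89773351, minus strand, height 573: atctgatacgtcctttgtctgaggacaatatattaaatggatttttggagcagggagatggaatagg

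Heights of the 378 members ran from 55 to 42903, with quartiles of 64, 84.5 and 135. There were 142 members with heights from 55 to below 75, 91 from 75 to below 100, 94 from 100 to below 200, 40 from 200 to below 500, 8 from 500 to below 1000 and 3 of 1000 or more. The tallest, RNU6-48P, held 44.8% of the summed height of all members (95709), so sums over the group describe this locus more than the rest. Around the height threshold there were 19 solitary peaks of height 53, 23 of 54, 15 of 55 and 13 of 56. Around the spacing threshold, the 3 tall peaks just inside had their nearest neighbour at 5034, 5113 and 5328.5 nt, and the 3 just outside at 4987, 4957 and 4895.5 nt. The median distance of a member to its nearest peak was 105687.5 nt. Members were narrower than tall clustered peaks, with a median width of 56 nt against 94 nt.

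**Figure D1:**
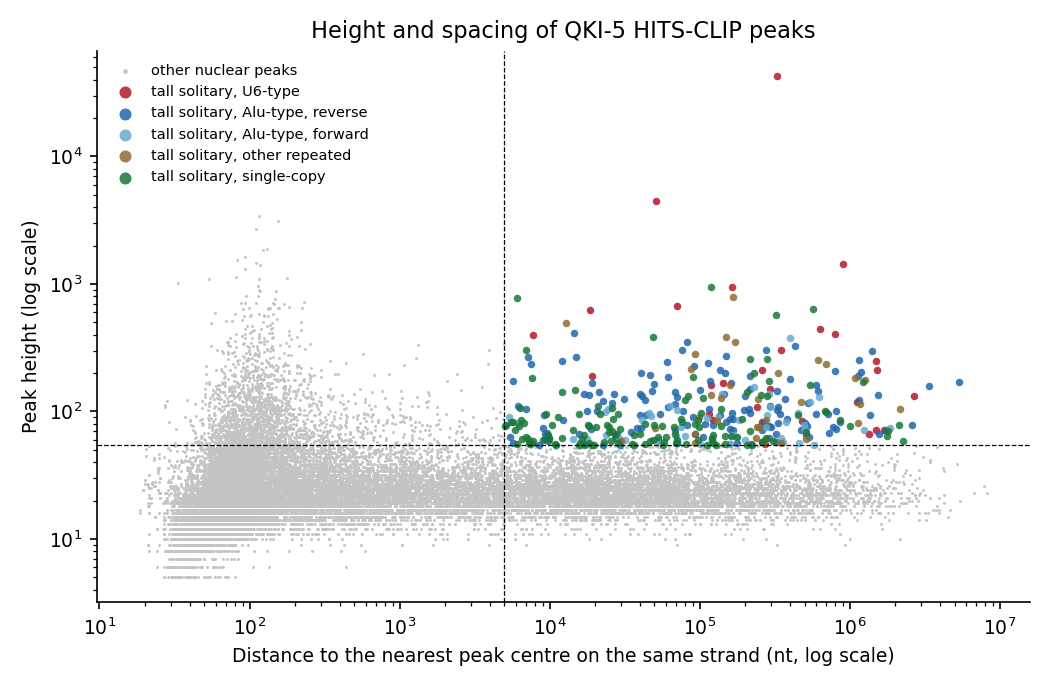
Height of each nuclear peak against the distance to the nearest peak centre on the same strand, both on log scales; dashed lines mark the height of 55 and the 5000 nt that chose the members, grey points are all other peaks and colours give the sequence group of the members. The 3 members above 1000 are all U6‐type (red), and most members lie below 200.

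To describe what the members had in common, their sequences were grouped by shared words of 12 nt with at most 1 mismatch and by whether the 30 nt around the summit occurred more than once in the genome. The largest group was Alu‐type in the reverse orientation, with 142 of 378 members (37.6%, interval 32.8 to 42.6). A further 46 members (12.2%) were Alu‐type in the forward orientation, 28 (7.41%) were U6‐type and 32 (8.47%) had other repeated summit sequence. The remaining 130 members (34.4%, interval 29.8 to 39.3) carried no shared word and had 1 genome copy, and are called single‐copy members. Only exact copies of the 30 nt were counted, so this group still holds diverged copies of repeated RNA genes, such as RNU2-61P. Among tall clustered peaks, 84.5% were single‐copy by the same criteria, 50.1 points more than among the members (interval 44.9 to 55). Reverse Alu‐type sequence made up 7.84% of tall clustered peaks, 29.7 points fewer than of the members (interval 24.8 to 34.8). The shared words were found in the members and were therefore chosen with their sequences in view, so these shares carry no test.

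The criterion that did not use the words gave the same order. The 30 nt around the summit occurred more than once in the genome for 212 of 378 members (56.1%, interval 51 to 61), against 9.72% of all nuclear peaks. The share was 10.7% among tall clustered peaks, a difference of 45.4 points (interval 40.2 to 50.5). It was 14.3% among solitary peaks with a height under 55, a difference of 41.8 points (interval 36.7 to 46.8). The members thus differed from both groups that matched them in height or in spacing alone. Reads that fit several genomic copies equally well cannot be assigned to 1 of them, and the authors removed alignments of low mapping quality. How that filter acted at these loci was not tested.

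**Figure D2:**
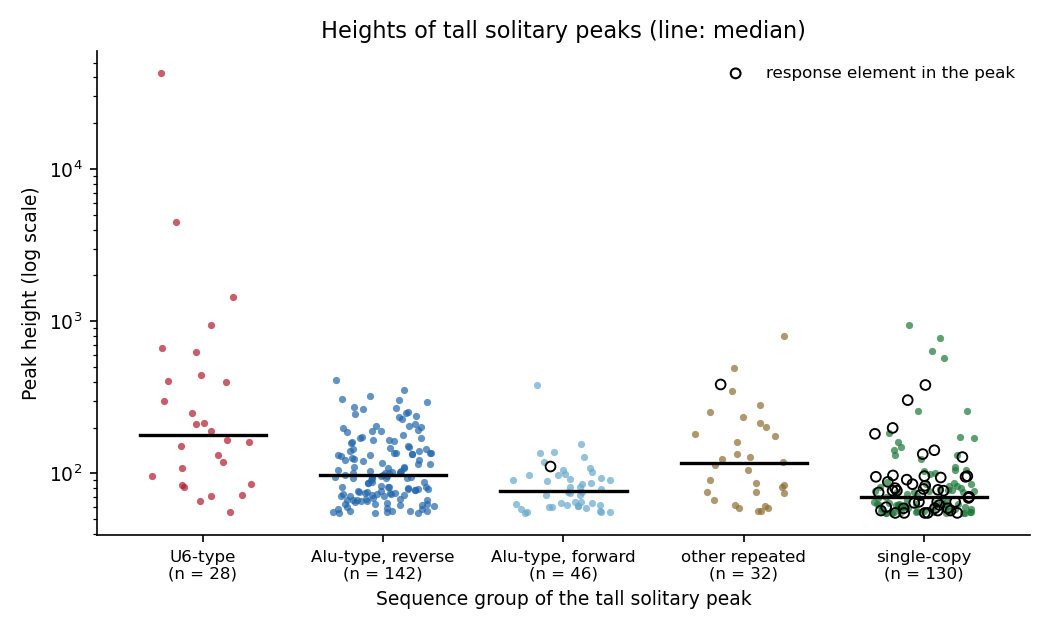
Height of every tall solitary peak (log scale) by sequence group, with the median as a line and open circles for peaks that contain the response element. Medians were 177.5 for U6‐type, 97.5 for reverse Alu‐type, 77 for forward Alu‐type, 116.5 for other repeated and 70.5 for single‐copy members, and 45 of the 47 circles are in the single‐copy column.

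The response element was present in 47 of 378 members (12.4%, interval 9.48 to 16.1), against 10.1% of all nuclear peaks. Among the 145 members with a height of 100 or more it was 9 (6.21%, interval 3.30 to 11.4), and this interval includes that background. Of tall clustered peaks 19.5% held the element, so the difference of members from them was -7.11 points (interval -10.6 to -3.04). It was not distinguishable from the 11.5% of solitary peaks with a height under 55, with a difference of 0.889 points and an interval from -2.18 to 4.68. Because clustered peaks were wider, the shares were also taken in 100 nt around each summit. There they were 12.96% for members and 18.6% for tall clustered peaks, a difference of -5.65 points (interval -9.13 to -1.55). The shorter core TAAC or TAAT was found in 32.8% of members and 56.02% of the wider tall clustered peaks, with no adjustment for width. It was found in 35.5% of solitary peaks with a height under 55, whose median width of 56 nt equalled that of the members. In all nuclear peaks the share was 37.5%.

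The sequence groups differed in the element. It was present in 45 of 130 single‐copy members (34.6%, interval 26.99 to 43.1), in 1 of 46 forward Alu‐type members (STAG2) and in 1 of 32 other repeated members (SIAE). It was found in none of 142 reverse Alu‐type members, whose Wilson interval reached up to 2.63%, and in none of 28 U6‐type members. Of single‐copy tall clustered peaks 22.3% held it, 12.3 points from the members (interval 4.42 to 21.0). In 100 nt around the summit the shares were 36.2% and 21.2%, 14.9 points apart (interval 6.95 to 23.7). Against single‐copy solitary peaks with a height under 55, at 14.2%, the difference was 20.5 points (interval 12.8 to 29.0). The words that define this group were taken from the members themselves after their sequences were seen, so this limit is not neutral between members and comparison peaks. With the number of genome copies as the only limit, 46 of 166 members (27.7%) and 391 of 1824 tall clustered peaks (21.4%) held the element, a difference of 6.27 points whose interval, from -0.266 to 13.8, reached 0. Against lower solitary peaks with 1 genome copy, at 13.3%, the difference was 14.4 points (interval 8.05 to 21.7). The core TAAC or TAAT was present in 57.7% of single‐copy members and 60.02% of single‐copy tall clustered peaks (difference -2.33 points, interval -11.2 to 6.15).

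**Figure D3:**
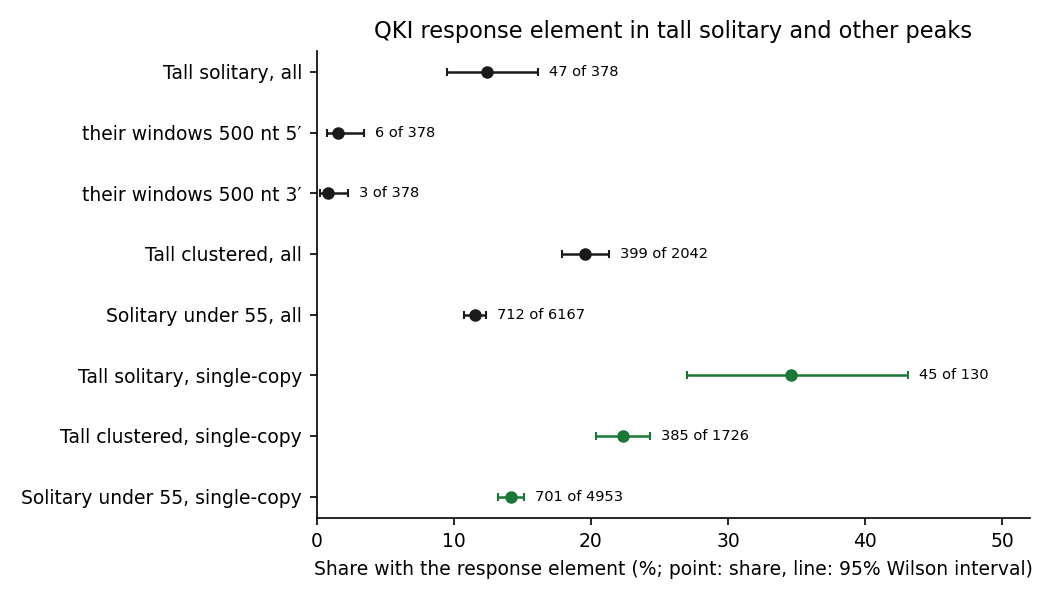
Share of peaks with the response element (point) and its 95% Wilson interval (line) in members, in equally long windows 500 nt away on both sides, and in the comparison groups; green marks single‐copy peaks. The 34.6% of single‐copy members lies above the 22.3% and 14.2% of the single‐copy comparison groups, and the windows hold the element in 6 and 3 of 378.

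Each member was compared with 2 windows of its own length, 500 nt to its 5′ and to its 3′ side. For members in short RNA genes such as U6 these windows lie outside the gene. Of the 5′ windows 6 held the element (1.59%) and of the 3′ windows 3 did (0.794%), beside 47 of the peaks. The spacing rule kept other listed peaks out of these windows, so the comparison depends in part on how the members were chosen. Around tall clustered peaks, 2.89% of the 5′ windows and 3.13% of the 3′ windows held the element. Around solitary peaks with a height under 55 the shares were 0.632% and 0.957%. By the exact two‐sided McNemar test, keeping the larger p of the 2 sides, 47 members held it in the peak alone and 6 in the 5′ window alone (p = 5.81e-09). Among the 166 members whose summit sequence had 1 genome copy, 46 (27.7%) held the element, against 3 of the 5′ windows (exact p = 6.98e-11). Together with the position tests below these were 4 tests, and each stayed below 0.05 after Benjamini‐Hochberg adjustment, the largest adjusted p being 5.81e-09. Among the 248 members that were not single‐copy, 2 peaks, 4 of the 5′ windows and 1 of the 3′ windows held it, so the difference from the windows came almost entirely from single‐copy members.

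The element lay close to the summit, on its 5′ side. Of 79 sites within 250 nt of a member's summit, 42 (53.2%) started within 25 nt of it, where an even spread would place 10.2% (exact two‐sided binomial test p = 2.04e-21). In 38 of these 42 the element started before the summit, and the median start was 17 nt to its 5′ side, with quartiles of -22 and -10.3 nt. Among 23 sites on the other strand, 0 were that close. In the sequences printed above, ACTB had its element 10 nt, RBM5 17 nt and HSD17B4 20 nt before the summit, and TSPAN5 30 nt before it. Among members whose summit had 1 genome copy, 41 of 68 sites (60.3%) lay within 25 nt (exact binomial p = 8.39e-24). Single‐copy members accounted for 40 of the 42 near sites. Around solitary peaks with a height under 55, which had the same spacing, 39.8% of sites lay within 25 nt of the summit, with a median start 12 nt before it. Tall clustered peaks are not set beside these, since their neighbours, at a median of 118 nt, bring elements of their own. The spacing rule kept such neighbours away from the members, so the position test also depends in part on how they were chosen. Sites of 1 peak share that peak, so the p values describe the list of peaks and not replicate experiments.

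**Figure D4:**
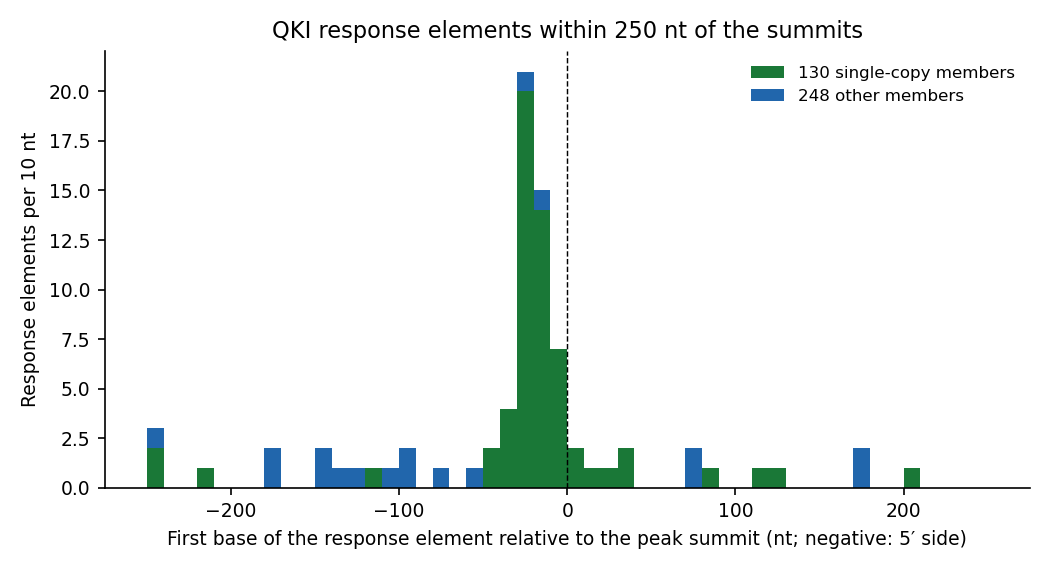
Response elements within 250 nt of the summits of the 378 members, counted in bins of 10 nt by the distance of their first base from the summit (negative values are on the 5′ side), with single‐copy members in green and the other members in blue. The tallest bins lie from -30 to -10 nt, and 40 of the 42 elements within 25 nt belong to single‐copy members.

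The base before the element also differed in frequency from that in other peaks. A T stood directly before it at 34 of 51 sites in members (66.7%, interval 52.97 to 78.03), against 44.9% of 479 sites in tall clustered peaks, a difference of 21.8 points (interval 7.37 to 33.97). Against the 49.1% of 758 sites in solitary peaks with a height under 55, the difference was 17.6 points (interval 3.44 to 29.5). The base after the element was A in 45.1% and C in 37.3% of member sites, within 5 points of the shares in tall clustered peaks. These bases were examined after the sequences had been seen, the intervals are not adjusted for the 4 bases on 2 sides, and no test was made. A further TAAC or TAAT lay in the 100 nt around the summit in 29 of the 45 single‐copy members with the element (64.4%, interval 49.8 to 76.8). In tall clustered single‐copy peaks with the element it was 222 of 385 (57.7%, interval 52.7 to 62.5), and these intervals overlap.

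The tallest members with the element lay in genes of different functions. SIAE, an esterase that deacetylates sialic acids, had a height of 384, and the 30 nt around its summit had 41 genome copies. Its peak lay opposite an annotated 5S rRNA pseudogene, and 3 members in all matched the antisense strand of 5S rRNA, of which SIAE and TMEM68 held the element and HINT3 did not. TSPAN5, a tetraspanin of the cell surface, had a height of 381 in an intron, the tallest intronic member, 1912 nt downstream of an exon and as 1 of 14 peaks in the gene. RBM5, a splicing regulator, had a height of 303, with the peak centre 68 nt downstream of an exon.

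ERH, a small conserved nuclear protein, had a height of 199 and PHACTR4, a regulator of protein phosphatase 1 and actin, a height of 182, both in 3′UTRs. MTCO3P12, a nuclear copy of the mitochondrial gene for cytochrome oxidase subunit III, had a height of 142 and held 2 elements, and the 30 nt around its summit also occur in the mitochondrial genome. Genome copies were counted on nuclear chromosomes, so it stayed in the single‐copy group, but its RNA cannot be told apart from mitochondrial RNA there. HSD17B4, a peroxisomal enzyme of fatty acid oxidation, had a height of 134. ACTB, which encodes β‐actin, had a height of 128. Its peak, the gene's only one, was 110 nt wide, centred 24 nt downstream of an exon and overlapped that exon.

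STAG2, a cohesin subunit, had a height of 111 and an unannotated site on chromosome 1 a height of 97. DMXL2 and PRELID2 each had a height of 96, and the PRELID2 peak held 2 elements. These 12 ranged from 96 to 384, below the 11 members of 500 or more, none of which held the element and 6 of which were U6 copies. Single‐copy members with the element had a median height of 77 (n = 45) and those without it of 67 (n = 85), which is a description because height chose them. The peaks themselves were wider with the element, at a median of 83 nt against 60 nt.

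Members lay in other places than comparison peaks. Introns held 102 members (26.98%), against 52.7% of tall clustered peaks, a difference of -25.7 points (interval -30.5 to -20.5). The strand opposite an annotated gene held 92 members (24.3%), against 2.15% of tall clustered peaks (difference 22.2 points, interval 18.1 to 26.8). The 3′UTRs held 91 members (24.1%), against 11.9% (difference 12.2 points, interval 7.88 to 16.9). Small RNA genes held 28 (7.41%), against 0.147% (difference 7.26 points, interval 5.01 to 10.4). Other exons held 27 members, promoters 21, intergenic sequence 12 and 5′UTRs 5. Promoter here means within 1000 nt before or 100 nt after an annotated transcript start, which in ACTB and RBM5 includes starts inside the gene. Against solitary peaks with a height under 55, of which 70.4% were intronic and 6.29% antisense, the differences had the same signs.

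**Figure D5:**
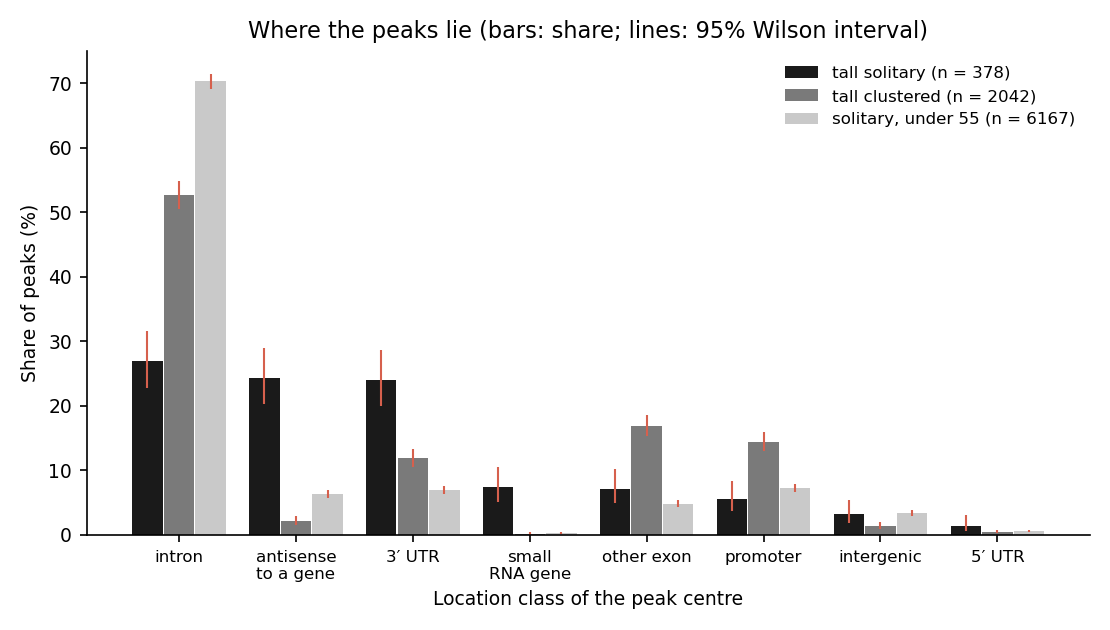
Share of peaks in each location class for tall solitary, tall clustered and lower solitary peaks (bars) with 95% Wilson intervals (red lines). Tall solitary peaks have the lowest intronic share, 26.98%, and the highest shares antisense to a gene, in 3′UTRs and in small RNA genes.

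The location classes followed the sequence groups. Alu‐type sequence made up 71 of the 92 antisense members and 72 of the 91 3′UTR members, and U6‐type sequence 25 of the 28 members in small RNA genes. Of the 130 single‐copy members, 77 (59.2%) were intronic, against 53.2% of single‐copy tall clustered peaks (difference 6.04 points, interval -2.86 to 14.4). In 3′UTRs, single‐copy members made up 6.15% and single‐copy tall clustered peaks 10.4% (difference -4.27 points, interval -7.65 to 1.41). The antisense share was 6.15% in single‐copy members (8 of 130), 0.406% in single‐copy tall clustered peaks (difference 5.75 points, interval 2.71 to 11.3) and 3.09% in single‐copy lower solitary peaks (difference 3.06 points, interval 0.0173 to 8.60). Of these 8 members 5 were narrower than 25 nt. Without peaks that narrow, left out after the values were seen, the share was 2.54% (3 of 118), 2.14 points from that of tall clustered peaks (interval 0.407 to 6.81) and -0.42 points from that of lower solitary peaks (interval -2.17 to 4.27). Against lower solitary peaks, the intronic share of single‐copy members was lower, at 59.2% against 75.3% (difference -16.1 points, interval -24.8 to -7.94). Other exons held 13 of 130 single‐copy members, against 18.5% of single‐copy tall clustered peaks (difference -8.48 points, interval -12.97 to -1.88).

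In introns, 24 of 102 members (23.5%, interval 16.4 to 32.6) lay within 500 nt of an exon of the same strand, 19 of them downstream of the exon and 5 upstream. The median distance was 2142 nt. The share was 21.5% in tall clustered intronic peaks (difference 2.06 points, interval -5.56 to 11.5) and 15.2% in solitary intronic peaks with a height under 55 (difference 8.36 points, interval 1.10 to 17.5). Single‐copy members made up 21 of the 24, with 16 downstream and 5 upstream. The downstream side also held more of the near peaks in the other groups. It held 1861 against 983 upstream in all nuclear intronic peaks, 150 against 81 in tall clustered and 451 against 207 in lower solitary peaks. The centres of the PRELID2 and MACROD1 peaks, each with 2 elements, lay 95 and 69 nt downstream of an exon, MACROD1 being named after its values were seen. CHAF1A, a subunit of the chromatin assembly factor, and DZIP1, also named after their values were seen, had peaks with the element centred 61 and 77 nt upstream of an exon.

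None of the 378 members overlapped the exon or adjacent introns of the cassette exons that the study lists as changed by QKI‐5 knockdown. Of all nuclear peaks 2.47% did. For the count of 0, the 95% Wilson interval of the share reached up to 1.01%. The count was 78 of 2042 tall clustered peaks (3.82%) and 39 of 6167 solitary peaks with a height under 55 (0.632%). Only the positions of those exons were used here. The share of the lower solitary peaks lies within what the count of 0 allows for the members, and that of tall clustered peaks lies above it. Overlap was counted on the gene strand, while 92 members lay antisense to a gene and only 102 in introns, so location bears on this count. Among the 166 members with 1 genome copy the count was also 0, with an interval up to 2.26%. Whether members avoid these exons beyond their location was not tested.

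U6‐type members were the tallest group, from 56 to 42903 with a median of 177.5. The 6 tallest were RNU6-48P at 42903, RNU6-1330P at 4474, RNU6-8 at 1445, RNU6-671P at 949, RNU6-7 at 671 and RNU6-40P at 624. Of 1332 annotated U6 genes and copies, 37 held any listed peak and 25 held a member, and 3 further U6‐type members lay in no annotated gene. Counted from 1 at the first base of each gene copy, the 25 summits had a median position of 17, with quartiles of 16 and 22. The peaks started at a median position of -4 and ended at a median of 37, and 9 of them ended at position 34. ACTAAA starts at position 24 in the reference gene RNU6-1, which is 107 nt long, and was present in 27 of the 28 U6‐type members, against 2.04% of all nuclear peaks. The shared word that defines U6‐type members stands just before ACTAAA in U6, so its share among them was largely fixed by the grouping.

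The members in U6 copies were close in sequence to the reference gene. Over the first 60 nt, 10 of the 25 were identical to RNU6-1 and the median was 1 difference, with a highest count of 25 in RNU6-31P. The 30 nt around the summit occurred more than once in the genome for 14 of the 28. Heights of copies identical over these 60 nt ran from 72 at RNU6-6P to 1445 at RNU6-8. Their peaks also covered bases before the gene, which this comparison left out. The 30 nt around the summit had 36 genome copies at RNU6-6P and 1 at RNU6-8. Where the copies are identical, the deposited values cannot tell RNA of 1 copy from RNA of another, or of the U6 genes as a whole. Only 1 tall clustered peak was U6‐type.

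Other small RNAs were few among the members. RNU2-61P at 573 and RNU2-64P at 257 matched the sense strand of U2, and RNY4, a Y RNA, had a height of 62. No member matched 7SK RNA. TERC, the RNA component of telomerase, had a height of 133 and was named after its value was seen. Matches to 7SL RNA were found in 9 members on the sense strand and 37 on the antisense strand with heights from 55 to 296. These matches include Alu‐type members already counted, such as the peaks opposite YME1L1 and TP53AIP1, and Alu elements derive from 7SL RNA.

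In the Alu‐type members the shared words lay inside the peaks, because the groups were formed that way. The median peak width was 48 nt in reverse and 64 nt in forward members. The distances of the words from the summits are therefore a description. The most frequent reverse word, present in the CDC40 and YME1L1 peaks, was found in 119 members with at most 1 mismatch, and it started a median of 2 nt to the 3′ side of the summit, with quartiles of -3 and 4 nt. The forward word of SKA1 was found in 39 members and started a median of 15 nt before the summit, with quartiles of -21.5 and -11 nt. A run of 8 T within 60 nt before the summit was present in 86 of 142 reverse members (60.6%) and in 5 of 130 single‐copy members. Because the reverse group was formed by its sequence, this difference follows at least in part from the grouping. Such runs were not counted in peaks outside the members. Reverse members lay antisense to a gene in 52 cases, in 3′UTRs in 50, in introns in 20 and in other exons in 10. Forward members lay in 3′UTRs in 22 cases and antisense to a gene in 19. The tallest reverse member was in the 3′UTR of MYNN, a zinc finger protein, at 409. The tallest forward member lay opposite SKA1, which encodes a kinetochore component, at 379.

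Alu‐type members were more often accompanied by a peak on the other strand than single‐copy members were. Within 500 nt, 27 of 188 Alu‐type members and 0 of 130 single‐copy members had a peak on the opposite strand. Within 5000 nt the counts were 52 of 188 and 3 of 130. The spacing rule looked at the same strand only, so it did not fix these counts. Members that lay opposite each other were each counted. Peaks outside the members were not counted in this way, so whether this is particular to the members was not tested.

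The tallest single‐copy members did not hold the element. HTT, which encodes huntingtin, had a height of 943 in an exon. MALAT1, an abundant nuclear long non‐coding RNA of the splicing speckles, had a height of 770. Its peak, 89 nt wide and 1 of 11 in the gene, was centred 24 nt upstream of an annotated exon and overlapped it. An intergenic peak on chromosome 1 had a height of 641, and whether its sequence matches the large ribosomal RNAs was not tested. Of the 12 tallest members, 7 were U6‐type or U2 copies, and none held ACTAAC. The tallest member of each location class was MYNN for 3′UTRs, POU5F1 at 249 for 5′UTRs, C10orf71 at 796 for antisense, TSPAN5 for introns, HTT for other exons, MALAT1 for promoters, RNU6-48P for small RNA genes and the site of 641 for intergenic sequence. The POU5F1 peak was reverse Alu‐type, with 13739 genome copies of its summit sequence.

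Of the 378 members, 274 lay in a gene on their own strand. For 149 of them the member was the only listed peak of the gene, and for 252 it was the tallest. Both counts follow in part from the rule on height and spacing, so they are a description and are not set beside comparison groups. A member was the gene's only peak in 39 of 118 single‐copy cases and in 110 of 156 others. The 274 members lay in 273 genes, and 207 of them in protein‐coding genes.

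Members were counted in 5 lists of genes relevant to splicing and to the mesenchymal state. Of 315 listed genes, 228 held any peak and 9 held a member (3.95% of those with a peak), beside 217 of the 4748 protein‐coding genes with a peak (4.57%). In the splicing list, RBM5 had a height of 303 and SRSF5, an SR protein, a height of 59. Of the 2 members in the actin list, ACTB had 128. In the adhesion list, LPP, a LIM protein of focal adhesions, had 91, the long non‐coding RNA PVT1 had 81, LAMC1, a laminin chain, had 63 and DLG1, a polarity scaffold, had 60. In the TGF‐β, Hippo and Wnt list, FZD2, a Wnt receptor, had 101 in a reverse Alu‐type sequence. None of the 39 genes with a peak in the endocytosis list held a member. Among the members named here, those in RBM5 and ACTB held the response element, and LPP had repeated summit sequence.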

How the data were processed

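HITS‐CLIP for QKI‐5 was measured in 7 immunoprecipitation and 2 size‐matched input libraries of mesHMLE cells. The authors trimmed reads with cutadapt 1.3, aligned them to hg19 with TopHat2 2.0.10, collapsed reads by barcode, removed alignments of low mapping quality with SAMtools, pooled the libraries, and used MACS2 with the size‐matched input as control, 1 strand at a time. The deposited peak list gives for each peak its position, summit and height, a pileup signal, and its fold, p and q columns were not used. Depth per library is unknown, so no value was compared between libraries.

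Members were selected by script and annotated with GENCODE release 44 mapped to GRCh37, the assembly of hg19. A peak was assigned by its centre to the first matching class in the order small RNA gene, promoter, 5′UTR, 3′UTR, other exon, intron, antisense and intergenic. Sequences were read from GRCh37, and motifs were searched on the peak strand and, where stated, on the opposite strand. The motif ACTAAC contains TAAC, so these searches overlap. Exact copies of the 30 nt around each summit were counted on both strands of the nuclear chromosomes. Shared words of 12 nt were taken from the members in order of frequency, allowing 1 mismatch, until fewer than 5 members shared one, which gave 6 words. Alu‐type words were named from their letters, since no repeat annotation was used. Small RNA matches required at least 10 words of 12 nt shared with the reference transcript.

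Only 2 tests were run, an exact McNemar test of peaks against their windows and a binomial test of motif positions, each on all members and on those with 1 genome copy, two‐sided and at 0.05. On simulated data, 200 of 200 planted motifs were found and of 200 tests without a difference, 0 McNemar and 8 binomial tests gave p under 0.05. The members, gene lists and comparisons were chosen with earlier results of these data known. Named peaks were the 12 tallest members, the 12 tallest with ACTAAC, the tallest of each class and members in listed genes, and exceptions are stated. Some items that this rule covers are not reported here. Alternatives varied height, spacing, windows, motif, class order and gene models. Python 3.11.15, numpy 2.4.6, pandas 2.3.3, scipy 1.17.1, pysam 0.24.0 and samtools 1.23.1 were used.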

Additional observations from a re-analysis of the deposited data

Results flagged for a closer look

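The rule on chromosomes left the mitochondrial peaks out of the members. There were 18 of them, and 16 had a height of at least 55, a signal outside the comparisons above. Their heights ran from 25 to 1328 with a median of 231.5, and 6 of the 18 held ACTAAC. The spacing rule was not applied to them. Among the members, the summit sequences of MTCO3P12 (height 142) and of an intergenic peak on chromosome 11 (height 491) also occur in the mitochondrial genome. The part of mitochondrial RNA in these 2 members was not tested.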

How the results depend on the processing

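No paired analysis was possible because the peaks were called on pooled libraries and carry no replicate numbers, and for the same reason no replicate could be left out. In 58 of 78 alternatives the value stayed within its main interval or kept its call. The difference between peaks and windows ranged from 5.52 to 25.9 points and the near share of sites from 36.8% to 69.6%, and every alternative of these 2 tests kept its direction and a p under 0.05. With heights of 100 or more (145 members), 6.21% held ACTAAC, 10.3% were intronic, 13.8% lay in small RNA genes, 72.4% had repeated summit sequence and 33.3% of intronic members lay within 500 nt of an exon. With heights of 40 or more (760 members), 42.8% were intronic, 18.6% antisense, 18.6% in 3′UTRs and 4.21% in small RNA genes, and 42.9% had repeated summit sequence. Without members of more than 1 genome copy (166 left), 27.7% held ACTAAC, 53.6% were intronic, 6.02% antisense and 7.23% in 3′UTRs. With introns assigned first, 44.2% were intronic and 15.9% in 3′UTRs. Counting copies of 50 nt in place of 30 nt gave 36.0% repeated, and a distance of 250 nt in place of 500 nt gave 15.7% of intronic members near an exon. With TAAC or TAAT as the motif the share was 32.8%. Taking single‐copy members alone, an alternative chosen after seeing the data as was leaving out members under 20 nt, gave 34.6%. Shares of location and sequence type therefore depended on the height threshold. Among the gene lists, 8 genes in place of 9 held a member with protein‐coding models only, since PVT1 dropped out. Intervals and p values cover counting error over 1 list of peaks.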

Other observations

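A few members were much narrower than the rest. There were 13 under 25 nt, with heights from 60 to 256, and 12 of them were single‐copy. None held ACTAAC in the 100 nt around its summit. They included peaks of 5 nt opposite RPS6KL1 (height 185) and CAPN2 (height 162) and a peak of 4 nt at TPT1-AS1 (height 110), all named after their values were seen. Of the 8 single‐copy members antisense to a gene, 5 were under 25 nt. Peaks under 20 nt made up 2.12% of members, 0.196% of tall clustered peaks and 1.47% of all other nuclear peaks, the last 0.644 points from the members (interval -0.408 to 2.65). What these narrow peaks are was not tested.

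In 3 of the 47 members with ACTAAC (6.38%, interval 2.19 to 17.2), the element was followed within the peak by GGCTCAC, a word near the start of forward Alu elements. They were RBM5, PTPN12 and the intergenic peak of height 97 on chromosome 1. The count was 6 of 399 tall clustered peaks with the element (1.504%, interval 0.691 to 3.24) and 30 of all 2415 nuclear peaks with it (1.24%). The pattern was noticed in the sequences and then counted, the intervals overlap, and it was not tested.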
